A study of Psychotria grandis and Psychotria costivenia and Psychotria revoluta with 6 samples.

Results

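Among the leaf transcripts of 3 Psychotria species from Cuba, 80 of 45143 contigs were abundant in every plant and still varied between plants. A contig is an assembled transcript or a piece of one. The contigs were chosen by their own counts: a level of at least 300 CPM (counts of a contig per 1000000 counts of its library) in each of 6 libraries, and a ratio of the highest to the lowest of these levels above 1.3. The levels and their range are therefore given as a description. P. grandis and P. costivenia are labelled nickel hyperaccumulators and P. revoluta is labelled a non-accumulator, and each was sampled as 2 wild plants, with 1 library per plant. P. grandis was collected at Mil Cumbres on 27 June 2014, P. costivenia at La Coca on 12 June 2014, and P. revoluta at Mil Cumbres on 27 July 2014 (plant 1) and 27 June 2014 (plant 2). All plants grew wild on serpentine soil, which is rich in nickel, under gallery forest. Species thus differed along with accumulation, and accumulation was compared against a single non-accumulating species. P. costivenia differed from P. revoluta in locality and date as well. P. grandis and P. revoluta shared the locality, and also the date except for P. revoluta plant 1.

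Hyperaccumulators take up metal through the root and store it in the leaf at levels that poison most plants. In leaves of land plants in general, the most abundant nuclear mRNAs include those for the small subunit of Rubisco, the enzyme that fixes carbon dioxide, and for the chlorophyll-binding proteins that harvest light, beside mRNAs for metal-binding and stress proteins. Which of these the 80 contigs encode is not known here: the files number the contigs and do not pair them with gene names or sequences, so no photosynthesis, metal or cell type list could be read. The contigs are reported by number. Several may be pieces of 1 gene or copies of a gene family, so 80 contigs need not be 80 genes. As contig lengths are not in the files either, a level can be compared between plants for 1 contig, but not between contigs as an amount of transcript.

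Library totals ran from 45676087 to 57907913 counts, so that 300 CPM stood for at least 13703 counts and counting error was small beside the differences between plants. Between the plants of a species, a chi-square statistic of counting noise, which sampling alone would put near 1, had a median over the 80 contigs of 11827 for the P. grandis pair, 544 for the P. costivenia pair and 623 for the P. revoluta pair. P. grandis plant 1 stood apart from the other 5 libraries, and results that rest on it are given with and without it. Reads of P. costivenia and P. revoluta were counted on contigs of another species, and the part that sequence differences play in their levels was not tested. These are whole leaves, so fewer cells of a type and less RNA per cell cannot be told apart.

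The 80 contigs held the largest part of the counts in P. costivenia and the smallest in P. grandis plant 1. Their share was 10.9% and 14.2% in P. grandis plants 1 and 2, 15.6% and 15.97% in P. costivenia, and 14.1% and 14.4% in P. revoluta. Counting error moved each share by at most 0.0104 percentage points (exact Clopper-Pearson interval at 95%, counting error only). The species means were 12.5 ± 2.35% for P. grandis, 15.8 ± 0.232% for P. costivenia; P. revoluta averaged 14.3 ± 0.179% (SD, n = 2 each). The plants of P. grandis did not agree, while the P. costivenia plants lay above both P. revoluta plants by more than the distance within either species. The 80 contigs were 20.5% to 23.7% of the contigs that reached 300 CPM in a given library, of which there were 337 to 390. Of the counts in those contigs they took 25.1% in P. grandis plant 1 and 37.9% to 40.4% in the other libraries.

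**Figure D1:**
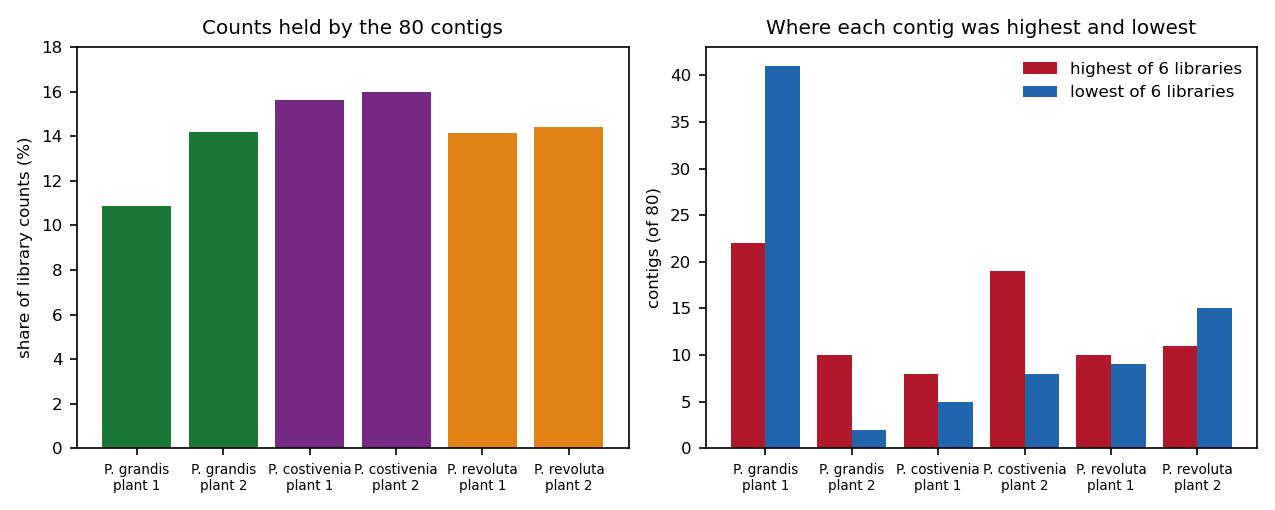
Left, share of all counts of a library (%) held by the 80 contigs, 1 bar per plant: P. grandis plant 1 is lowest at 10.9% and P. costivenia plant 2 highest at 15.97%. Right, number of the 80 contigs with their highest (red) and lowest (blue) CPM of the 6 libraries in each plant: P. grandis plant 1 holds 22 of the highest and 41 of the lowest values.

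Most of the variation of these contigs lay in P. grandis plant 1. That plant had the lowest of the 6 levels for 41 of the 80 contigs and the highest for 22, which left 17 contigs for which another pair of libraries set the range. Of all 35660 contigs kept for testing (the low-count filter), P. grandis plant 1 was lowest in 25.6% and highest in 28.3%. The numbers were again 41 and 22 when libraries were scaled by TMM, a factor that corrects library totals for differences in composition. P. grandis plant 1 lay at least 2-fold below every other plant for 18 of the 80 contigs (9.99% of all tested contigs) and at least 2-fold above every other plant for 6 (12.2% of all tested contigs). The other libraries were lowest for 2 to 15 contigs each (3.73% to 18.6% of all tested contigs) and highest for 8 to 19 (11.7% to 21.4%). The upper ends of these ranges belong to different libraries. P. costivenia plant 2 was highest for 19 contigs (13.7% of all tested contigs) and lowest for 8 (18.6%). P. revoluta plant 1 was highest for 10 (21.4%), and P. revoluta plant 2 was lowest for 15 (13.1%).

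**Figure D2:**
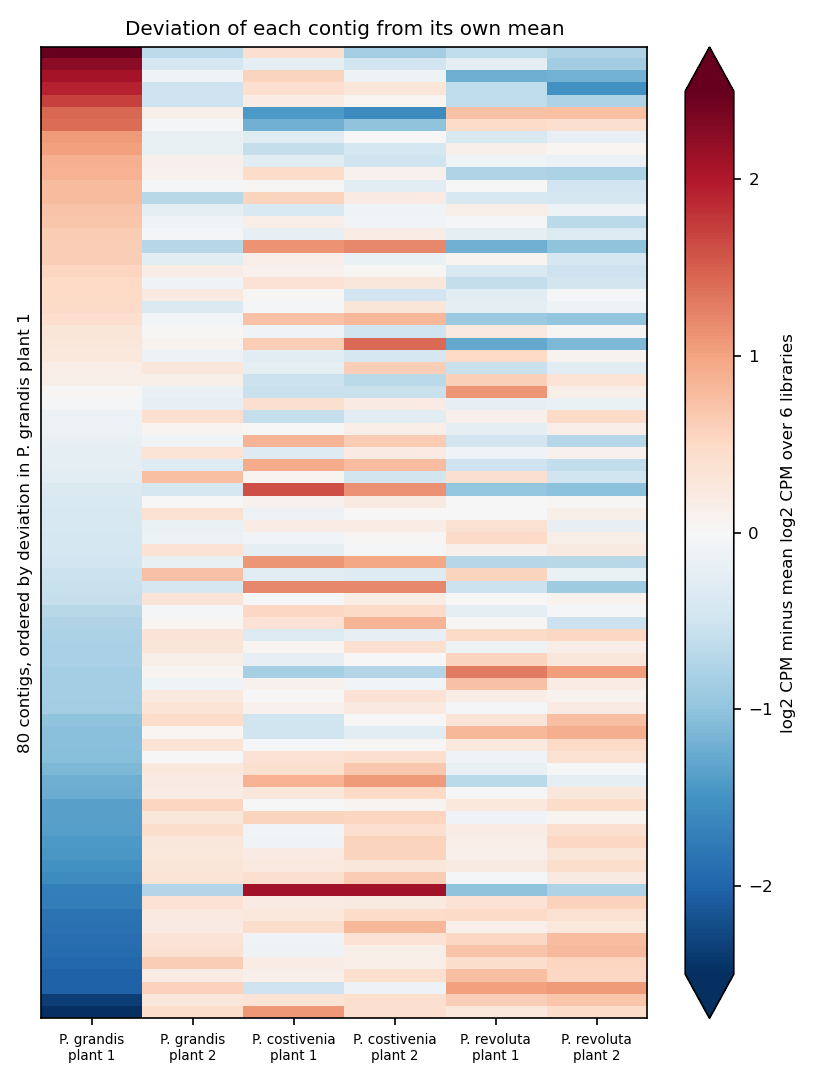
Each row is 1 of the 80 contigs and each column 1 library; colour is log2 CPM minus the contig's mean log2 CPM over the 6 libraries, and rows are ordered by the value in P. grandis plant 1. The first column runs through the full scale of colours, and the other 5 columns are paler in most rows.

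The ratio of the highest to the lowest level had a median of 3.05 over the 80 contigs, ran from 1.33 to 14.1 and was at least 4 for 26 contigs. Without P. grandis plant 1, the same 80 contigs had a median ratio of 1.68, and the ratio was at least 4 for 7 and at most 1.3 for another 7. Leaving out any other library instead kept the median at 2.93 to 3.05, with 23 to 26 contigs at 4 or more. The 5 other plants therefore held these contigs at much more similar levels.

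**Figure D3:**
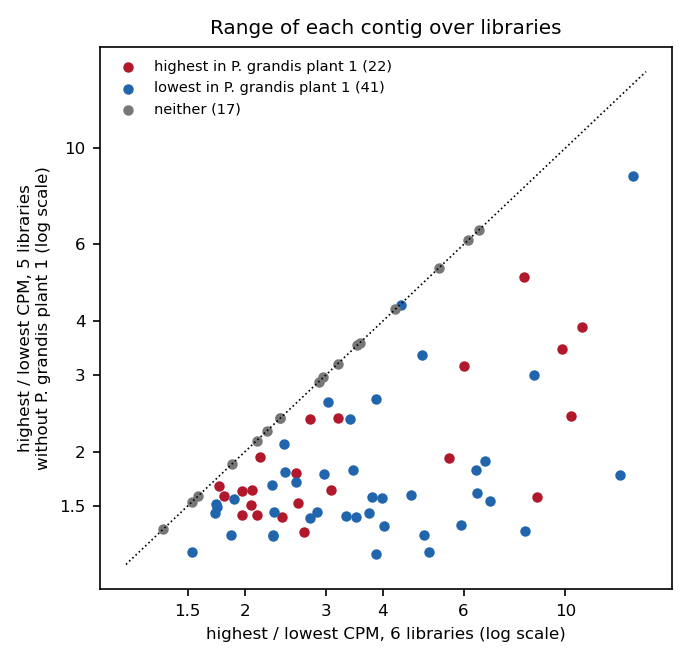
Ratio of the highest to the lowest CPM of each of the 80 contigs over 6 libraries (x, log scale) against the ratio without P. grandis plant 1 (y, log scale); the dotted line marks equality. The 17 grey contigs, for which that plant set neither end, lie on the line, and the median falls to 1.68 in 5 libraries, against 3.05 in 6.

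P. grandis plant 1 also had the largest effect on which contigs qualified. A further 103 contigs reached 300 CPM in the other 5 libraries and missed it in that plant, where their median was 70.4 CPM. Each of the other libraries was the only one under 300 CPM for 1 to 4 contigs. With P. grandis plant 1 set aside, the rule gave 170 contigs, of which 73 were among the 80 and 97 were not. Those 97 contigs held 0.865% of all counts in plant 1 of P. grandis and 9.15% in plant 2, against 9.30% and 9.76% in P. costivenia, and 9.09% and 10.7% in P. revoluta. Every one of the 97 was lower in P. grandis plant 1 than in all other plants, which the way they were chosen brings about.

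The plants of P. grandis differed in these contigs far more than those of the other species. On the scale of log2(CPM + 1), the median difference between plants was 2.05-fold for P. grandis, and 1.16-fold for both P. costivenia and P. revoluta. At least a 2-fold difference was found for 41 of the 80 contigs (51.2%) in P. grandis, 11 higher and 30 lower in plant 1, for 1 contig in P. costivenia and for 0 in P. revoluta. Among all 12793 contigs with a mean of at least 10 CPM, 40.8% differed that much between P. grandis plants, 5.81% between P. costivenia plants and 2.70% between P. revoluta plants. The July and June plants of P. revoluta thus held all 80 contigs within 2-fold of each other. The spread between plants that counting noise does not account for, as a coefficient of variation from edgeR, had a median of 41.3% over the 80 contigs and 52.5% over all tested contigs.

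P. grandis plant 2 resembled P. revoluta in these contigs, as it did over all contigs, and P. grandis plant 1 correlated weakly with every other plant over the 80 contigs. Over the 80 contigs, log2 CPM correlated with a Pearson's r of 0.942 and 0.922 between P. grandis plant 2 and P. revoluta plants 2 and 1, and 0.807 and 0.838 between P. grandis plant 2 and P. costivenia plants 1 and 2. Between the P. grandis plants r was 0.276, and between P. grandis plant 1 and the other plants it was 0.170 to 0.345. The plants of P. costivenia correlated at 0.965 and those of P. revoluta at 0.968, and P. costivenia plants with P. revoluta plants at 0.669 to 0.738. All 3 plants concerned were within 1.3-fold of each other for 33 of the 80 contigs when P. grandis plant 2 was set beside P. revoluta, and for 5 when P. grandis plant 1 was. The shares of all contigs were not computed for these counts, so they are not read as particular to the 80 contigs. Over all 45143 contigs, on the scale of log2(CPM + 1), r was 0.783 to 0.850 between P. grandis plant 1 and the other plants, and 0.960 and 0.963 between P. grandis plant 2 and P. revoluta plants 1 and 2. The correlations over the 80 contigs describe contigs that share their libraries and were selected for high levels, which narrows their range and lowers r.

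Of the 5 contigs with the highest mean level, 3 were lowest and 2 highest in P. grandis plant 1. Pgra_v1_contig_650 stood at 2556 and 15125 CPM in P. grandis plants 1 and 2, at 11248 and 11149 CPM in P. costivenia, and at 13456 and 14427 CPM in P. revoluta. Pgra_v1_contig_1242 stood at 1435 and 12229 CPM in P. grandis, at 18931 and 11876 CPM in P. costivenia, and at 10732 and 12304 CPM in P. revoluta. Pgra_v1_contig_503 stood at 1920 and 9042 CPM in P. grandis, at 8564 and 10362 CPM in P. costivenia, and at 13172 and 11093 CPM in P. revoluta. These contigs were low in P. grandis plant 1 and within 1.36-fold, 1.76-fold and 1.54-fold over the other 5 plants. Pgra_v1_contig_179 stood at 17162 and 3835 CPM in P. grandis, at 6026 and 3724 CPM in P. costivenia, and at 1747 and 1796 CPM in P. revoluta, and was highest in P. grandis plant 1 and lowest in P. revoluta. Pgra_v1_contig_124 stood at 5366 and 2985 CPM in P. grandis, at 3781 and 4719 CPM in P. costivenia, and at 3232 and 3508 CPM in P. revoluta. Its ratio was 1.80, P. grandis plant 1 was not far above the other plants, and the range of P. grandis took in the plants of both other species. None of the 5 passed the test in any comparison of species (adjusted p from 0.171 to 0.991 by edgeR).

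**Figure D4:**
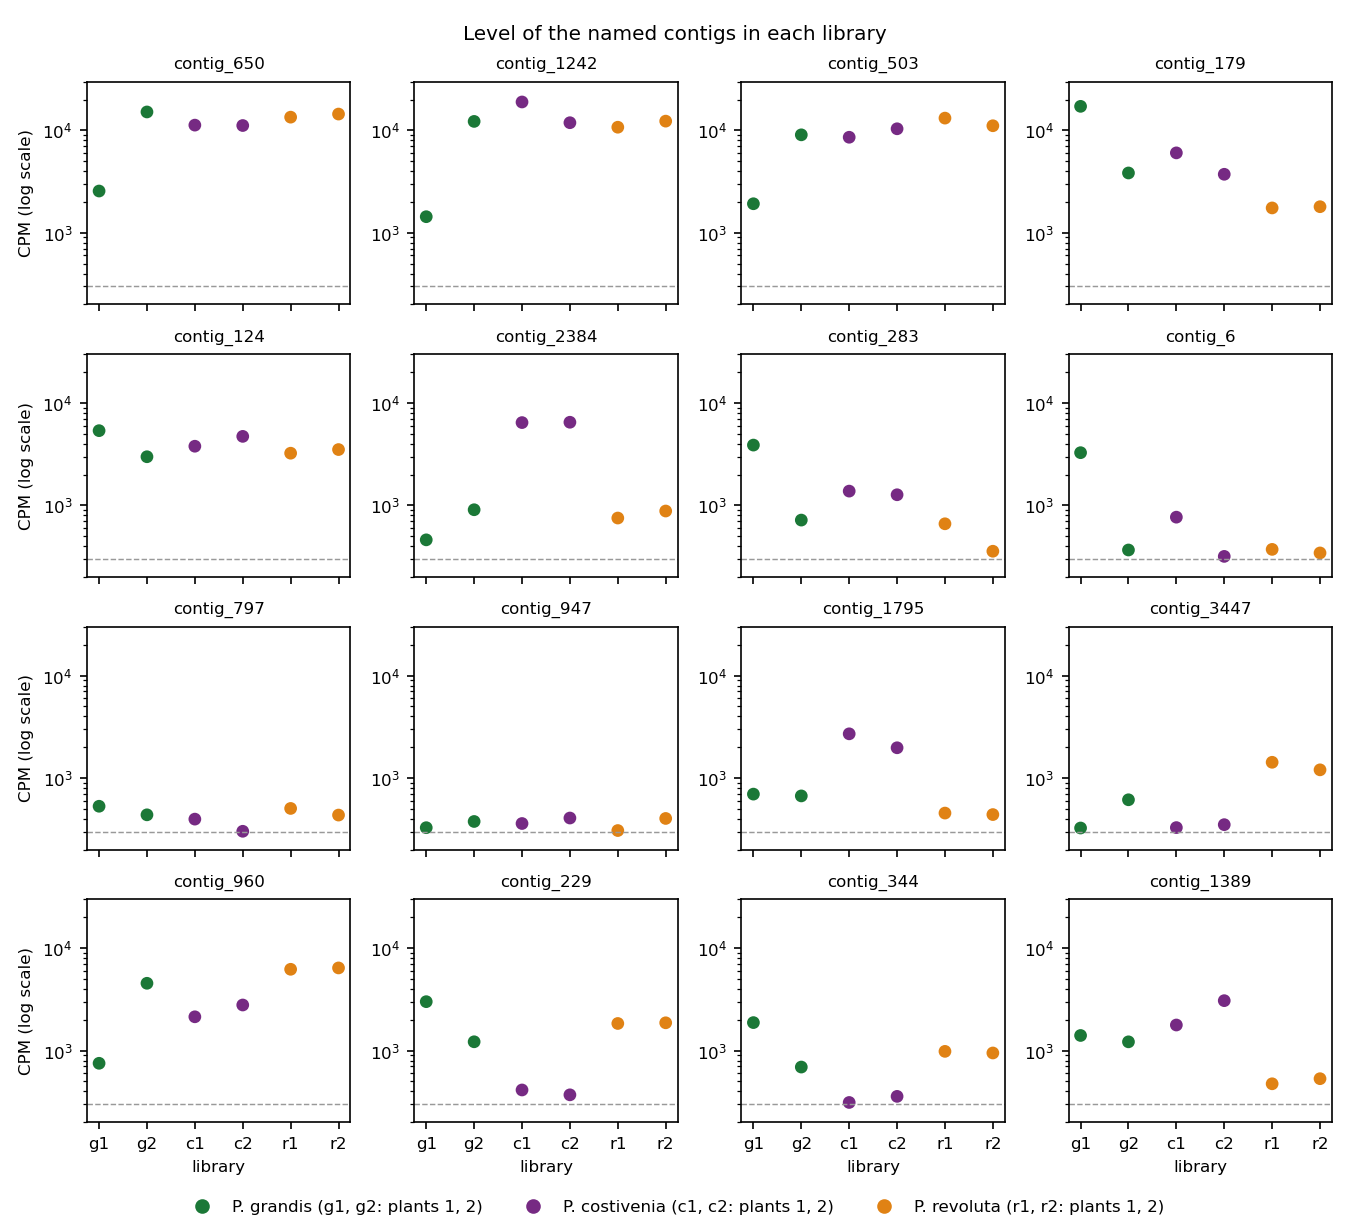
CPM (log scale) of 16 named contigs in each plant, 1 point per library, coloured by species; the dashed line marks 300 CPM. Contigs 650, 1242 and 503 are low in P. grandis plant 1, contigs 179, 283 and 6 are high there, and contigs 2384 and 1795 are high in both P. costivenia plants.

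The contigs closest to Pgra_v1_contig_650 in pattern were Pgra_v1_contig_2206, Pgra_v1_contig_798 and Pgra_v1_contig_364, with Pearson's r of log2 CPM of 0.994, 0.992 and 0.987 over 6 libraries. They stood at 412, 553 and 806 CPM in P. grandis plant 1 and at 1576 to 2026, 1426 to 2061 and 2685 to 3115 CPM in the other plants. Of the other 79 contigs, 20 had an r above 0.9 with Pgra_v1_contig_650 and 31 an r below 0. With 6 libraries, 1 of which stands apart, such values rest mainly on that library.

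The widest ranges had more than 1 form. The widest, a ratio of 14.1, belonged to Pgra_v1_contig_2384, at 461 and 906 CPM in P. grandis, 6434 and 6483 CPM in P. costivenia, and 752 and 881 CPM in P. revoluta. Its ratio was 8.62 without P. grandis plant 1, so P. costivenia set it apart. Pgra_v1_contig_1242, described above, had a ratio of 13.2, which was 1.76 without P. grandis plant 1. Pgra_v1_contig_283 had 3880 and 718 CPM in P. grandis, 1378 and 1270 CPM in P. costivenia, and 661 and 357 CPM in P. revoluta. Pgra_v1_contig_6 had 3271 and 367 CPM in P. grandis, 767 and 318 CPM in P. costivenia, and 372 and 343 CPM in P. revoluta. For both of these, the high value of P. grandis plant 1 accounted for most of the range, with ratios of 10.9 and 10.3 over all plants and 3.86 and 2.42 without it.

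At the limits of the rule, values inside and outside were close. Pgra_v1_contig_797 had the lowest minimum of the 80 contigs, 301.74 CPM in P. costivenia plant 2, and Pgra_v1_contig_2782 missed the floor with 298 CPM in the same plant. Pgra_v1_contig_947 had the lowest ratio, 1.33, with 327 and 376 CPM in P. grandis, 359 and 406 CPM in P. costivenia, and 307 and 403 CPM in P. revoluta. Only 2 contigs reached 300 CPM in every plant and failed the ratio, Pgra_v1_contig_1437 at 1.24 and Pgra_v1_contig_1844 at 1.18. Reaching the floor in every plant therefore nearly fixed the set by itself.

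P. costivenia was compared with P. revoluta to set a hyperaccumulator beside the non-accumulator, and here 5 of the 80 contigs were higher in P. costivenia and 0 were lower (edgeR, adjusted p at most 0.05). Of all 35660 tested contigs, 10.8% were called higher and 6.80% lower. As the 80 contigs were chosen on the same counts, with a floor that keeps out contigs low in any plant, nothing is read from the difference between these shares. All 80 contigs passed the low-count filter. At an unadjusted p under 0.05, 12 of the 80 contigs passed, and 39.2% of all tested contigs.

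Pgra_v1_contig_2384 was the contig with the largest difference, 6459 ± 34.7 CPM in P. costivenia and 817 ± 90.9 CPM in P. revoluta (SD, n = 2), or 3.27 on the log2 scale (SE 0.71, edgeR adjusted p = 0.0369). Pgra_v1_contig_1795 stood at 2700 and 1973 CPM in P. costivenia, against 454 and 439 CPM in P. revoluta, or 2.68 on the log2 scale (SE 0.55, edgeR adjusted p = 0.0343). In P. grandis, Pgra_v1_contig_2384 (461 and 906 CPM) lay on either side of P. revoluta, and Pgra_v1_contig_1795 (696 and 668 CPM) lay between P. revoluta and P. costivenia. The other contigs called are named because they were few, after their values were seen. Pgra_v1_contig_1389 stood at 1779 and 3075 CPM in P. costivenia, against 474 and 532 CPM in P. revoluta (log2 fold change 2.56, edgeR adjusted p = 0.0460). Pgra_v1_contig_26 stood at 1937 and 1953 CPM in P. costivenia, against 584 and 459 CPM in P. revoluta (log2 fold change 2.19, edgeR adjusted p = 0.0429). Pgra_v1_contig_851 stood at 1099 and 992 CPM in P. costivenia, against 309 and 317 CPM in P. revoluta (log2 fold change 2.03, edgeR adjusted p = 0.0377). With library totals in place of TMM, 2 of the 80 contigs were called (17.4% of all tested contigs), Pgra_v1_contig_2384 and Pgra_v1_contig_1795 (adjusted p = 0.0473 and 0.0428 by edgeR). Pgra_v1_contig_1389, Pgra_v1_contig_26 and Pgra_v1_contig_851 then missed the threshold (edgeR adjusted p = 0.0571, 0.0593 and 0.0538). None of the 5 contigs had overlapping plants of these species, and 4 of them, all but Pgra_v1_contig_1389, were at least 2-fold higher in both P. costivenia plants than in every other plant (5.70% of all tested contigs).

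Over the 80 contigs, the median log2 fold change of P. costivenia over P. revoluta was 0.39, with 56 contigs above 0 and 24 below, against a median of -0.001 over all tested contigs. With library totals in place of TMM the median was 0.09 and the split 44 to 36, while the median of all tested contigs moved to -0.29. The plants of the species did not overlap for 28 contigs higher and 27 lower in P. costivenia (33.7% and 46.0% of all tested contigs) on the scale of CPM. On the TMM scale the numbers were 46 higher and 13 lower (39.8% and 39.4% of all tested contigs), so the balance depends on the scaling. The count of 5 called contigs was 29 without P. grandis plant 1 (49.0% of all tested contigs called) and 25 without P. grandis plant 2 (39.3%). It was 0 when a single P. costivenia or P. revoluta plant was left out, which left 1 plant in its species, and 0% of all tested contigs were called then. With all plants, DESeq2 called 17 of the 80 contigs (38.0% of all tested contigs) and limma-voom 10 (16.3%).

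**Figure D5:**
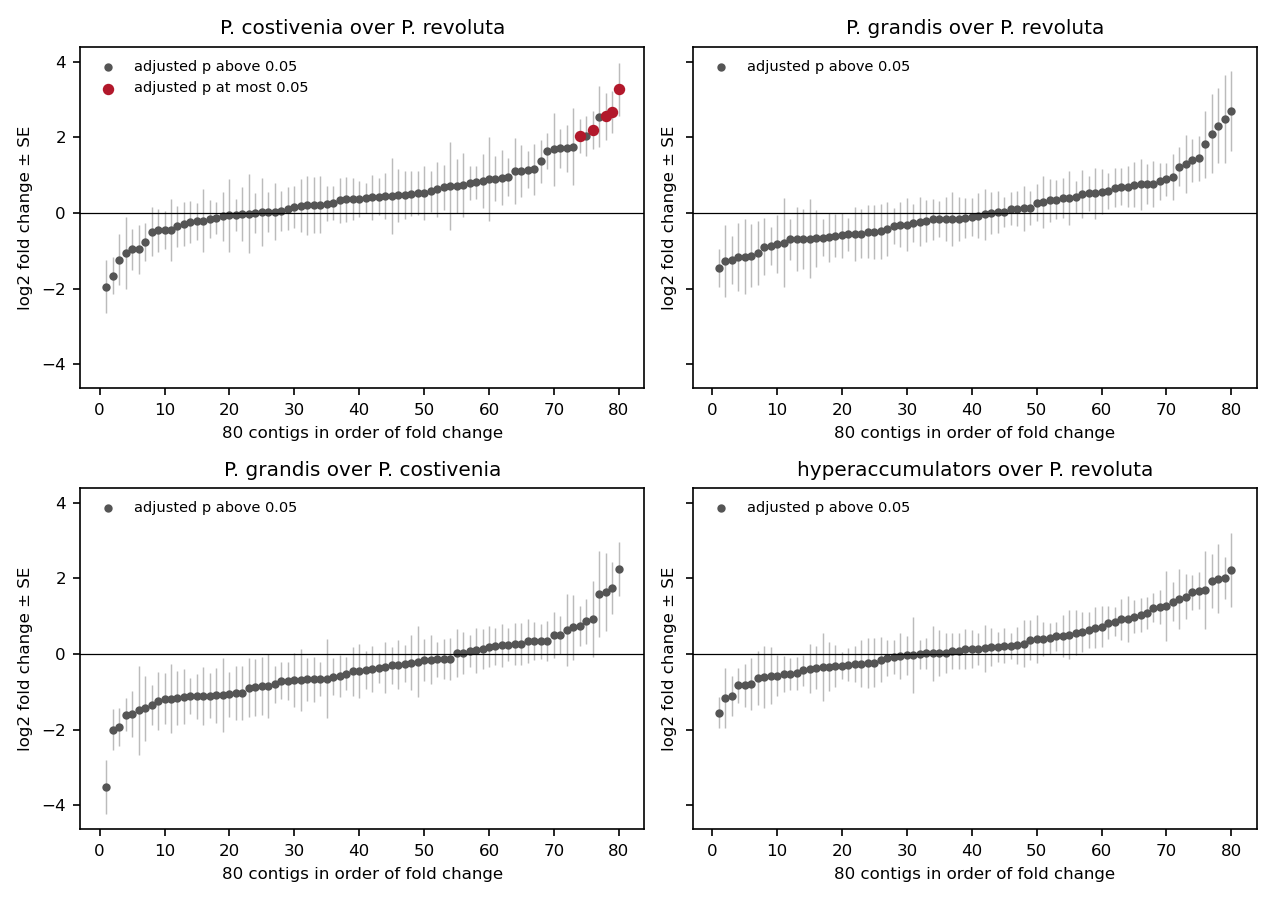
Log2 fold change (edgeR, TMM scale) with its SE for the 80 contigs, ordered within each comparison; the first-named species stands over the second. Red marks the 5 contigs at an adjusted p of at most 0.05, all higher in P. costivenia than in P. revoluta; the other comparisons have 0.

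P. grandis was compared with P. revoluta to set a hyperaccumulator beside the non-accumulator from the same locality, and 0 of the 80 contigs passed (edgeR, 0% of all tested contigs called). At an unadjusted p under 0.05, 2 of the 80 contigs passed (and 20.5% of all tested contigs). DESeq2 called 6 (15.4% of all tested contigs) and limma-voom 0 (0%). Pgra_v1_contig_179 had the largest fold change, 10498 ± 9423 CPM in P. grandis and 1772 ± 34.7 CPM in P. revoluta (SD, n = 2), a log2 fold change of 2.69 (SE 1.06) that missed the threshold (edgeR adjusted p = 0.241). Pgra_v1_contig_283, at 2299 ± 2235 CPM in P. grandis and 509 ± 215 CPM in P. revoluta, had a log2 difference of 2.31 (SE 0.99, edgeR adjusted p = 0.267). In the other direction, Pgra_v1_contig_3447 stood at 325 and 613 CPM in P. grandis, against 1424 and 1201 CPM in P. revoluta, or -1.46 on the log2 scale (SE 0.50, edgeR adjusted p = 0.197). Pgra_v1_contig_960 stood at 752 and 4545 CPM in P. grandis, against 6225 and 6419 CPM in P. revoluta, or -1.27 on the log2 scale (SE 0.95, edgeR adjusted p = 0.460). These 4 contigs were named among those whose plants did not overlap between the species, so the lack of overlap is a condition of the choice. For Pgra_v1_contig_283 and Pgra_v1_contig_960 (2649 ± 2682 CPM in P. grandis, SD, n = 2), the P. grandis plants spread about as widely as their mean.

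In all, 18 of the 80 contigs were higher and 16 lower in both P. grandis plants than in either P. revoluta plant (33.3% and 26.9% of all tested contigs). For 23 contigs the P. grandis plants lay on opposite sides of P. revoluta. The share of all tested contigs was not computed for that count, so nothing is read from it. The median log2 fold change was -0.09 over the 80 contigs and 0.13 over all tested contigs. Without P. grandis plant 1, 0 of the 80 contigs were called (1.45% of all tested contigs), and without plant 2, which left that species with plant 1 alone, 43 were (37.5%, edgeR). Without plant 1, the log2 fold change was 1.06 for Pgra_v1_contig_179, 0.45 for Pgra_v1_contig_283, -1.15 for Pgra_v1_contig_3447 and -0.53 for Pgra_v1_contig_960. Without plant 2, it was 3.31 for Pgra_v1_contig_179, 2.999 for Pgra_v1_contig_283, -1.97 for Pgra_v1_contig_3447 and -3.03 for Pgra_v1_contig_960. The sizes of these differences thus moved with the P. grandis plant that was kept. Their direction could hardly change, as the contigs were named among those whose plants did not overlap between the species.

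P. grandis was compared with P. costivenia to set the hyperaccumulators beside each other, and again 0 of the 80 contigs passed (edgeR, 2.68% of all tested contigs called, 1.83% higher and 0.852% lower). At an unadjusted p under 0.05, 8 of the 80 contigs passed (and 26.2% of all tested contigs). DESeq2 called 13 (22.3% of all tested contigs) and limma-voom 4 (3.44%). Pgra_v1_contig_229 stood at 3006 and 1220 CPM in P. grandis, against 413 and 369.9 CPM in P. costivenia, or 2.24 on the log2 scale (SE 0.71, edgeR adjusted p = 0.130). It was the only 1 of the 80 contigs for which both P. costivenia plants lay at least 2-fold below every other plant (11.0% of all tested contigs), with P. revoluta at 1841 and 1869 CPM. Pgra_v1_contig_344 stood at 1878 and 691 CPM in P. grandis, against 312 and 357 CPM in P. costivenia, or 1.75 on the log2 scale (SE 0.69, edgeR adjusted p = 0.187). Without P. grandis plant 1, the log2 difference was 1.29 for Pgra_v1_contig_229 and 0.70 for Pgra_v1_contig_344, and without plant 2 it was 2.82 and 2.37. Lower in P. grandis were Pgra_v1_contig_2384, with a log2 difference of -3.51 (SE 0.71, edgeR adjusted p = 0.0655), and Pgra_v1_contig_1795, with -2.01 (SE 0.54, edgeR adjusted p = 0.0997). These are the contigs named above for being high in P. costivenia, and both comparisons share those plants. DESeq2 called all 4 contigs, and limma-voom called Pgra_v1_contig_2384 (adjusted p = 0.0389) and Pgra_v1_contig_1795 (adjusted p = 0.0455).

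More of the 80 contigs were below P. costivenia than above it in P. grandis. The split was 26 higher and 54 lower, with a median log2 fold change of -0.44, against 0.24 over all tested contigs. With library totals in place of TMM it was 32 to 48, with medians of -0.16 and 0.48. As the 80 contigs were chosen on the same counts, nothing is read from the difference between the medians. The plants did not overlap for 11 contigs higher and 25 lower in P. grandis (35.1% and 20.2% of all tested contigs), or for 5 and 34 on the TMM scale (28.9% and 26.4%). Without P. grandis plant 1 there were 12 called contigs (24.1% of all tested contigs) and without plant 2 there were 39 (25.9%, edgeR). Without any 1 of the other plants 0 were called, and 0% of all tested contigs. Both fits with calls left P. grandis with 1 plant, whose spread was assumed to be that of the other species.

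The mean of both hyperaccumulators was also set against P. revoluta, as the contrast closest to accumulation, and 0 of the 80 contigs passed (edgeR, 6.52% of all tested contigs called, 4.47% higher and 2.06% lower). It shares the P. revoluta plants with the comparisons above. At an unadjusted p under 0.05, 10 of the 80 contigs passed (and 34.2% of all tested contigs). DESeq2 called 16 (31.5% of all tested contigs) and limma-voom 0 (0%). Pgra_v1_contig_179 had a log2 difference of 2.22 (SE 0.97, edgeR adjusted p = 0.171), and all 4 hyperaccumulator plants lay at least 2-fold above both P. revoluta plants. Pgra_v1_contig_1389 had 1405 and 1218 CPM in P. grandis and 1779 and 3075 CPM in P. costivenia, against 474 and 532 CPM in P. revoluta, or 2.00 on the log2 scale (SE 0.56, edgeR adjusted p = 0.0800). These were the 2 contigs of the 80 whose 4 hyperaccumulator plants all lay at least 2-fold above P. revoluta (9.93% of all tested contigs), and 0 lay at least 2-fold lower in all 4 (1.99%).

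In the lower direction, Pgra_v1_contig_3447 had 325 and 613 CPM in P. grandis and 328 and 350 CPM in P. costivenia, against 1424 and 1201 CPM in P. revoluta, or -1.56 on the log2 scale (SE 0.41, edgeR adjusted p = 0.0712). Pgra_v1_contig_960 had 752 and 4545 CPM in P. grandis and 2139 and 2789 CPM in P. costivenia, against 6225 and 6419 CPM in P. revoluta, or -1.17 on the log2 scale (SE 0.79, edgeR adjusted p = 0.333). At any size of difference, 15 contigs had all hyperaccumulator plants above both P. revoluta plants and 14 had all of them below (21.2% and 22.1% of all tested contigs), or 16 and 7 on the TMM scale (23.1% and 20.4%). The median log2 fold change of the 80 contigs was 0.13 under TMM and -0.03 with library totals, beside 0.04 and -0.12 over all tested contigs, so its sign depends on the scaling. Without P. grandis plant 1 there were 19 called contigs (29.2% of all tested contigs) and without plant 2 there were 38 (41.8%), by edgeR. Without P. grandis plant 1, the log2 difference was 1.41 for Pgra_v1_contig_179 and -0.80 for Pgra_v1_contig_960, and without plant 2 it was 2.47 and -2.12. DESeq2, with all plants, called Pgra_v1_contig_179, Pgra_v1_contig_1389 and Pgra_v1_contig_3447.

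On the scale of CPM, both plants of a species lay apart from all other plants for about as many of the 80 contigs in P. costivenia as in P. revoluta, and for fewer in P. grandis. The shares of all tested contigs had the same order, so it is not read as particular to the 80 contigs. Both P. costivenia plants were above all other plants for 18 contigs and below them for 9 (17.3% and 25.6% of all tested contigs), or 29 and 4 on the TMM scale (22.4% and 21.1%). Both P. grandis plants were above all others for 3 contigs and below for 5 (13.3% and 4.48% of all tested contigs), and for 0 contigs by 2-fold in either direction (3.74% and 0.149%). On the TMM scale, the numbers for P. grandis were 1 and 8 (10.6% and 7.04%). Both P. revoluta plants were above all others for 14 contigs and below them for 15 (22.1% and 21.2% of all tested contigs), the contigs counted above against the hyperaccumulators.

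The 80 contigs had low running numbers. The rule did not use the number, but it used the level, which fell with the number over all contigs. The low numbers are therefore not separate from the choice. Their numbers ran from 6 to 3909, with a median of 660.5, whereas the reference numbers its contigs from 1 to 45143. The first 1000 numbers held 53 of the 80 contigs, the next 1000 held 17, and those from 2001 to 4000 held 6 and 4. Abundance fell with the number in general: the median level of a contig was 60.6 CPM for the first 1000 numbers, 26.8 CPM for those from 4001 to 5000 and 0.205 CPM from 30001 upward, and Spearman's rho between number and mean CPM was -0.749 across all 45143 contigs. Contigs of at least 300 CPM in some plant were found at every stretch of numbers, 779 in all, with 10 from 30001 upward. Numbers 1 to 1000 held 257 of them, 1001 to 2000 held 132, 2001 to 3000 held 83 and 3001 to 4000 held 53. What set the order of the numbers is not given in the sources used here.

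Within the 80 contigs the running number went with the level in P. grandis plant 1. Whether such a trend held over all contigs was not tested. Over all contigs numbered 1 to 1000, the median was 70.7 CPM in P. grandis plant 1 and 40.8 to 53.4 CPM in the other plants. For all those numbered 3001 to 4000 it was 33.3 CPM, against 25.7 to 32.5 CPM. From 30001 upward it was 0.277 CPM, against 0.0621 to 0.131 CPM. P. grandis plant 1 thus had the highest median in each of these stretches, with no steady fall of its lead. Among the 80 contigs, of the 40 numbered 6 to 658, 16 were highest and 15 lowest in P. grandis plant 1. Of the 40 numbered 663 to 3909, 6 were highest and 26 lowest there. The lower-numbered contigs held 8.08% and 7.85% of the counts in P. grandis plants 1 and 2, 8.48% and 8.88% in P. costivenia, and 7.66% and 7.64% in P. revoluta. The higher-numbered contigs held 2.80% of all counts in plant 1 of P. grandis and 6.35% in plant 2, against 7.15% and 7.08% in P. costivenia, and 6.47% and 6.74% in P. revoluta. The lower-numbered share of P. grandis plant 1 held Pgra_v1_contig_179, with 1.72% of all counts there, against 0.175% to 0.603% in the other plants. Without that contig, left out after its values were seen, the lower-numbered contigs held 6.36% and 7.47% in P. grandis plants 1 and 2, 7.88% and 8.51% in P. costivenia, and 7.49% and 7.46% in P. revoluta. Pgra_v1_contig_179 was the lower-numbered contig with the highest level in P. grandis plant 1, and no leading contig of another plant was left out. Its removal therefore lowers that plant most by construction, and nothing is read from the order of the plants without it. Across the 80 contigs, Spearman's rho between the number and the log2 level of P. grandis plant 1 over the mean of the other plants was -0.369, a description of contigs that share that library.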

How the data were processed

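The deposited tables, 1 for each plant, hold unnormalized counts of reads on each contig, per the file headers. Reads of all species were counted on contigs assembled from a single P. grandis plant, per the series design text. Not given in the sources used here are the assembler, the aligner, the counter, and how strand and multiply matching reads were treated, and contigs that overlap or nearly match may have shared reads. Per the labels' protocols, libraries were stranded polyA libraries from DNase-treated leaf RNA. Headers of both P. revoluta tables carry another species prefix; the labels' species was used.

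CPM used library totals. A count of 0 allows 3 counts, or 0.0518 to 0.0657 CPM. All contigs entered edgeR 4.0.16 (R 4.3.3): filterByExpr by species (35660 contigs kept, 79.0%), TMM factors (0.883 to 1.12), and 1 robust quasi-likelihood model of 6 libraries (3 residual and 2.43 prior degrees of freedom), with Benjamini-Hochberg adjustment over all tested contigs, threshold 0.05, two-sided. SE is the absolute fold change over the square root of F. The code was checked on simulated counts. Alternatives used DESeq2 1.42.0, limma-voom 3.58.1, other scalings and filters, and fits without each plant. Named contigs were the 5 with the highest mean, the 4 with the widest ratio, those at the limits, and up to 2 per direction and comparison with the largest fold changes among called contigs whose plants did not overlap (or, with 0 called, among those whose plants did not overlap). The contigs, rules and comparisons were chosen with earlier results of these data known. P-values measure the spread between plants, 2 per species. In the main model that spread was estimated from all 6 libraries together. The P. grandis pair therefore also entered the p-values of P. costivenia against P. revoluta.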

Additional observations from a re-analysis of the deposited data

Results flagged for a closer look

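Among the 4 hyperaccumulator plants, 1 plant lay far from the others for 2 of the named contigs, out of 17 quantities examined by Dixon's criterion. Chance flags about 1 in 20 groups, but these contigs were chosen on the same levels, Pgra_v1_contig_6 for its wide range, so that rate does not apply to them and the flags are a description. Pgra_v1_contig_6 stood at 3271 CPM in P. grandis plant 1, against 318 to 767 CPM in the other 3 plants (gap over range 0.848). Pgra_v1_contig_3447 stood at 613 CPM in P. grandis plant 2, against 325 to 350 CPM in the other 3 plants (gap over range 0.912). Groups of 2 plants, the species, are too small for this criterion.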

How the results depend on the processing

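With 2 plants per species, every fit that leaves out a plant leaves 1 in its species, whose spread is then assumed to be that of the others. Over these fits (edgeR), called contigs among the 80 ran from 0 to 29 for P. costivenia against P. revoluta (0% to 49.0% of all tested contigs), 0 to 43 for P. grandis against P. revoluta (0% to 37.5%), 0 to 39 for P. grandis against P. costivenia (0% to 25.9%) and 0 to 38 for the hyperaccumulators against P. revoluta (0% to 41.8%). With all plants, the 5 called contigs of the first comparison became 2 under library totals (17.4%), 17 in DESeq2 (38.0%), 10 in limma-voom (16.3%) and 29 in a model of only these 4 libraries (56.3%). DESeq2 gave 6, 13 and 16 in the other comparisons, in that order (15.4%, 22.3% and 31.5%), and limma-voom 4 for P. grandis against P. costivenia (3.44%), each where edgeR gave 0. The cause was not tested. DESeq2 size factors and the absence of a filter kept all counts within 1.5-fold.

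The plant number was not taken to pair the samples, which are different plants of different species. Same-numbered plants deviated together with r of 0.119, -0.040 and 0.013 over all tested contigs in the 3 pairs of species. The first of these, for P. grandis and P. costivenia, exceeded the limit of 0.1 set for pairing, and the others did not. Over the 80 contigs r was 0.423, 0.372 and 0.357. With the plant number as a block, 0 of the 80 contigs were called in any comparison (2.74% of all tested contigs for P. costivenia against P. revoluta, 0% in the others), where the fit has fewer degrees of freedom.

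On the TMM scale, contigs without overlap numbered 46 higher and 13 lower for P. costivenia against P. revoluta, 5 higher for P. grandis against P. costivenia and 7 lower for the hyperaccumulators against P. revoluta. Without each plant in turn (an alternative, like the TMM scale here, added after seeing the data), these numbers ran from 28 to 40 higher and 27 to 35 lower (33.7% to 39.4% and 46.0% to 51.7% of all tested contigs), then 18 to 37 and 16 to 45 for P. grandis against P. revoluta (33.3% to 46.5% and 26.9% to 46.8%), 11 to 31 and 25 to 51 for P. grandis against P. costivenia (35.1% to 56.1% and 20.2% to 39.0%), and 16 to 22 and 14 to 21 for the hyperaccumulators (23.3% to 25.5% and 22.96% to 33.3%). Fewer plants overlap less by construction.

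The rule gave 80 to 170 contigs without each plant, 138 at a floor of 200 CPM and 42 at 500 CPM. At 200 CPM the contigs held 13.8% and 17.3% of the counts in P. grandis, 18.5% and 18.7% in P. costivenia, and 17.1% and 17.2% in P. revoluta. At 500 CPM the shares were 7.58% and 11.0%, 11.5% and 11.7%, and 11.0% and 11.3%. P. grandis plant 1 was lowest and P. costivenia highest at each floor. TMM scaling in the rule and ratios of 1.2 or 1.5 gave 79 to 82 contigs. The contigs named for a comparison were chosen for plants that did not overlap, which largely fixed the sign of their fold change in advance. The log2 fold changes of the named contigs kept their sign under every alternative run: of 178 values, 139 stayed on the same side of the threshold, 29 came to pass it and 10 no longer passed it. The 10 belong to Pgra_v1_contig_2384 and Pgra_v1_contig_1795 in P. costivenia against P. revoluta, whose adjusted p with a P. costivenia or P. revoluta plant left out was 0.145 to 0.311 (edgeR) and with the block 0.0681 and 0.0672.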
